A study of Bos taurus with 6 samples.

Results

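The genes of homologous recombination and DNA break repair were followed in pools of bovine primordial follicles (PMF), in 3 pools cultured for 16 h (T16) and in 3 pools retrieved after collection (T0). The set was a list of 34 genes, chosen by name for their place in this pathway, with earlier results of these data known. Of these, 33 had at least 1 matched RefSeq transcript and 31 had enough reads to be tested, among 23704 genes with a transcript and 14639 tested genes. A PMF is an oocyte enclosed by flattened pre-granulosa cells, and the follicles came by the study's methods from ovaries of Holstein Friesian dairy cows in the second year of life. They were isolated mechanically and pooled, and the sources used here name no treatment or genetic change. By the same methods, isolated follicles recovered for 1 h in medium with insulin and FSH. The culture medium of the T16 pools is not given in the sources used here, and no source says whether the pools of a group came from separate animals, so p-values measure the spread between pools only. The question of the comparison was what 16 h of culture changes in isolated PMF.

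Homologous recombination repairs a double-strand break by copying the intact sister or homologous chromosome. The MRN complex finds the break, kinases and a clamp signal it, nucleases trim the ends, RPA coats the exposed single strand, and the BRCA mediators and paralogs help a strand-exchange recombinase to replace RPA. Motor proteins, helicases and nucleases then finish the exchange and part the joined molecules. In oocytes, the pathway makes crossovers during fetal life, and in the arrested oocyte of the ovarian reserve it is known as a main route of break repair, since mutations of several of its genes lead to early loss of follicles in mice or women.

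Total estimated counts were 25761986 to 36703016 in T16 libraries and 22174653 to 30212698 in T0 libraries. The oocyte content of the libraries was uneven, as read from 22 oocyte marker genes with a transcript. Their summed level was 2884, 71.0 and 1041 TPM (reads scaled to transcript length and library size) in T16 replicates 1, 2 and 3, against 681, 2985 and 4225 TPM in T0 replicates 1, 2 and 3. T16 replicate 2 and T0 replicate 1 were the libraries poorest in oocyte transcripts, although no more than 1 of the 22 markers was at 0 in any library. Across genes, which are not independent replicates, T16 replicate 2 correlated best with T0 replicate 1 (Pearson's r of log2 CPM, counts scaled to library size, 0.868). The 12 granulosa cell markers summed to 504 to 1454 TPM at T16 and 1029 to 2103 TPM at T0, with no more than 1 at 0 in any library, and they did not go one way. Their log2 CPM was below T0 in every T16 library for 4 of them, among them FOXL2, and above T0 for FST and INHBA, while 6 overlapped. FOXL2, a defining factor of granulosa cells, had 3.37, 20.1 and 15.1 TPM at T16 against 38.5, 141 and 37.3 TPM at T0, and FST, an activin-binding protein, had 259, 513 and 288 TPM at T16 against 89.6, 90.01 and 24.5 TPM at T0. None of the 12 passed the edgeR test, 6 had an unadjusted p under 0.05, and DESeq2 called 5. Summed markers of smooth muscle and pericytes were 30.7 to 109 TPM at T16 and 115 to 442 TPM at T0. Those of endothelium were 15.0 to 39.0 TPM at T16 and 23.0 to 392 TPM at T0. This sum was mostly 1 gene, CLDN5, which gave 382 of the 392 TPM in T0 replicate 1. Of the 6 endothelial markers tested, 3 had a positive and 3 a negative log2 fold change of T16 over T0, and 0 were without overlap. Stroma markers summed to 276 to 1734 TPM at T16 and 1184 to 2940 TPM at T0. COL1A2 alone gave 1488 of the 2940 TPM in T0 replicate 1, and of the 8 stroma markers 3 had a positive and 5 a negative log2 fold change. In such bulk pools, fewer cells of a type and less RNA per cell cannot be told apart, and the part of cell composition in the values of the repair genes was not tested.

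The repair genes spanned a wide range of levels, with RPA, RAD50, HUS1 and RAD52 at the top. TPM corrects for transcript length, so levels of different genes can be set side by side, within limits. Genes with longer transcripts still tended to have lower TPM. The Spearman correlation was -0.445 over the 31 tested members and -0.351 over all tested genes, which are not independent replicates. Members counted by only some of their RefSeq transcripts may also rank too low. Over the 6 libraries, 6 of the 31 tested members averaged more than 50 TPM, 9 averaged 10 to 50 TPM, 15 averaged 1 to 10 TPM and 1 was lower. RPA3 stood at percentile 93.7 of all tested genes by mean TPM and RAD50 at 86.8, while BRCA2 stood at 20.7 and SFR1 at 7.45. Libraries of the same gene differed widely, with a median ratio of 3.89 between the highest and the lowest of the 6 libraries. Within T16, 21 of the 31 members peaked in replicate 1 and 14 were lowest in replicate 3. Over all tested genes, these libraries were the highest and the lowest for 43.8% and 36.4%. Within T0, 16 members peaked in replicate 3 and 2 were lowest there, against 37.3% and 35.4% of all genes.

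**Figure D1:**
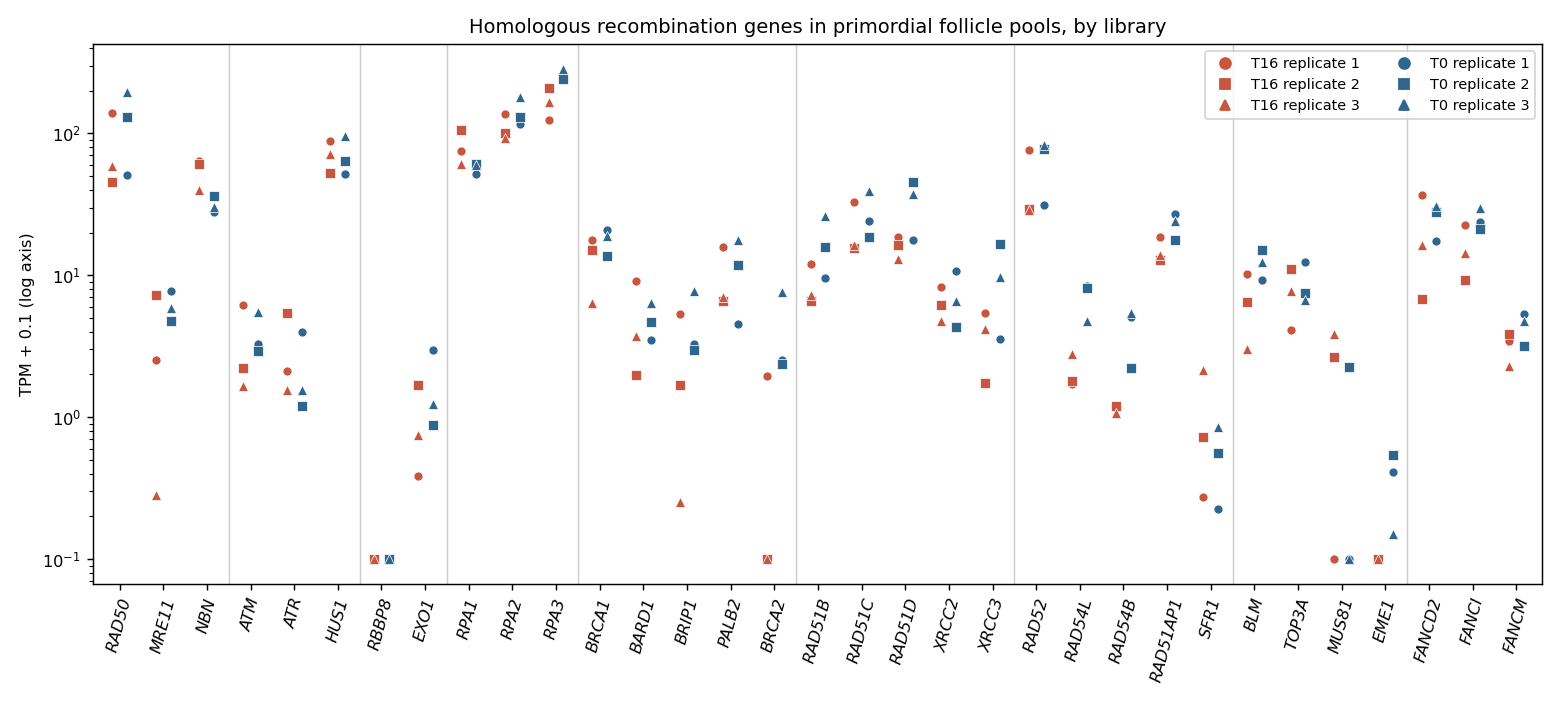
Level of 33 homologous recombination genes in each library, as TPM + 0.1 on a log axis, with genes ordered by role and grey lines between roles; each point is 1 library, T16 in red and T0 in blue. RPA3 is at the top with 125 to 210 TPM at T16 and 241 to 287 TPM at T0, RBBP8 is at 0 in all libraries, and for most genes the colours mix.

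No member passed the test between T16 and T0. The edgeR quasi-likelihood test at a false discovery rate of 0.05 called 0 of the 31 tested members, beside 6 of all 14639 tested genes (0.041%). DESeq2 also called 0 of 31, where it called 1027 of all genes (7.02%). At an unadjusted p under 0.05, edgeR gave 3 members (9.68%), a smaller share than the 13.8% of all genes. These were NBN on the higher side, and RAD54L and RAD54B on the lower side. The log2 fold change of T16 over T0 was negative for 24 members and positive for 7, with a median of -0.40. Over all tested genes, 7822 were negative and 6817 positive, with a median of -0.08. Leaving out T16 replicate 1 moved the median of the members to -0.69, beside -0.137 over all tested genes. Without T0 replicate 1, the median of the members was -0.30, beside 0.0249 over all tested genes.

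Without a model of the spread, the T16 and T0 libraries of 8 members did not overlap on the scale of normalised log2 CPM. This was 25.8% of the members and close to the 23.8% of all tested genes. NBN and RPA1 were higher in every T16 library than in any T0 library, which held for 13.2% of all genes. BRCA2, RAD54L, RAD54B, RPA3, RAD51D and BLM were lower in every T16 library, as were 10.6% of all genes. On the TPM scale the count was 5, beside 23.1% of all genes, because RPA1, RAD51D and BLM overlapped there. Without T16 replicate 1, 16 of 31 members did not overlap (51.6%), beside 36.3% of all genes, and 13 of these 16 were lower at T16.

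**Figure D2:**
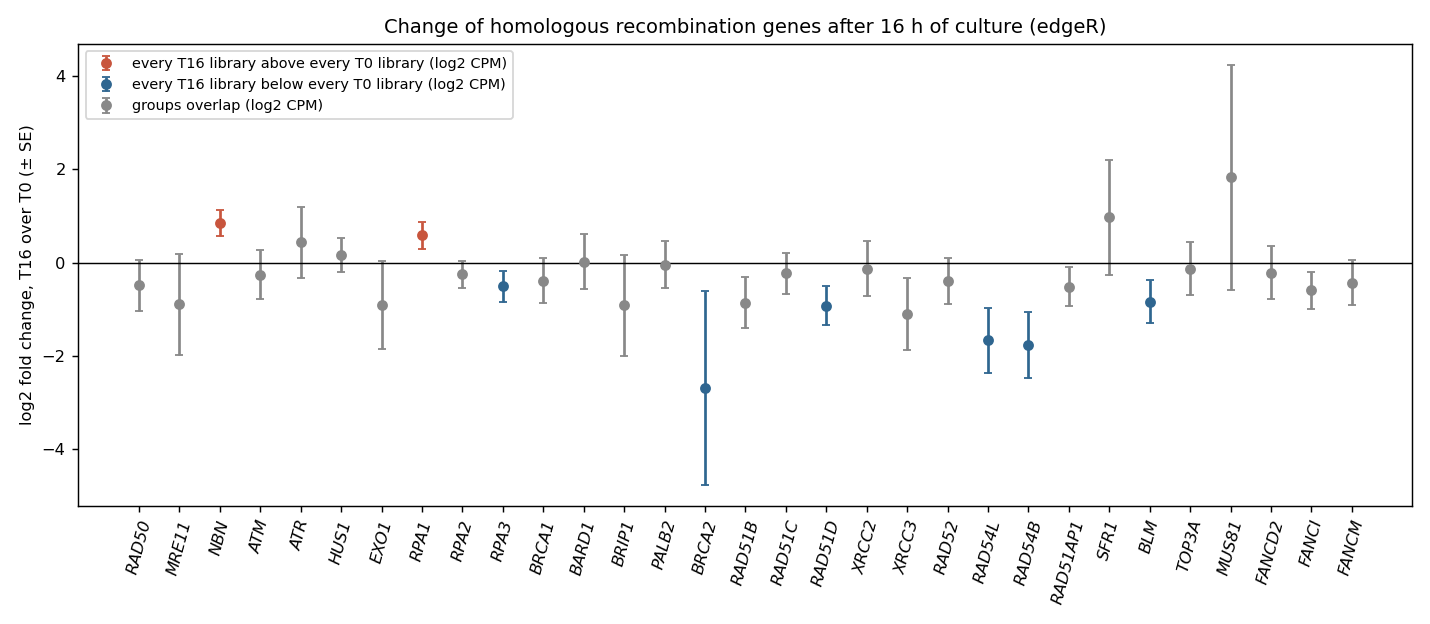
Log2 fold change of T16 over T0 from edgeR for the 31 tested members, ordered by role; bars are ± 1 standard error, and colour shows whether the groups overlap on the log2 CPM scale. NBN (0.85) and RPA1 (0.59) are the members with all T16 libraries above T0, BRCA2 has the lowest value (-2.69), and no member passed the test.

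The MRN complex, which binds and tethers broken ends, had members with log2 fold changes of both signs. NBN, the subunit that recruits ATM to the break, had 63.6, 61.0 and 40.0 TPM in T16 replicates 1, 2 and 3, against 28.0, 35.9 and 30.4 TPM in T0 replicates 1, 2 and 3. Its lowest T16 library was above its highest T0 library, and it was the steadiest of the 3 subunits within each group. NBN thus had a log2 fold change of 0.85 ± 0.28 (SE, n = 3 per group, edgeR adjusted p = 0.245), which was 0.71 to 0.94 when single libraries were left out. RAD50, the long coiled-coil ATPase of the complex, had 140, 45.4 and 58.6 TPM at T16 against 51.0, 130 and 197 TPM at T0. Here the groups overlapped broadly, and T16 replicate 1 exceeded T0 replicates 1 and 2. For RAD50 the log2 fold change was -0.49 ± 0.55 (SE, n = 3 per group, edgeR adjusted p = 0.773), and 0.02 with the oocyte markers as a covariate. MRE11, the nuclease subunit, had 2.43, 7.14 and 0.18 TPM at T16 against 7.64, 4.66 and 5.78 TPM at T0. T16 replicate 3 was far below the others, at 13 counts against 112 to 345 counts in the other libraries. MRE11 is listed here by 1 of its 3 RefSeq transcripts, RAD50 by 1 of 4 and NBN by 2 of 3, so all may be counted in part.

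Of the genes that signal the break, HUS1 was abundant and the kinases were not. HUS1, a part of the 9-1-1 checkpoint clamp, had 88.0, 52.7 and 71.4 TPM at T16 against 51.3, 63.8 and 95.2 TPM at T0. The group means were 70.7 ± 17.7 TPM at T16 and 70.1 ± 22.6 TPM at T0 (SD, n = 3 each), and the sign of the edgeR log2 fold change of 0.16 turned when T0 replicate 2 or T16 replicate 1 was left out. ATM, the kinase that answers double-strand breaks, averaged 3.25 ± 2.45 TPM at T16 and 3.81 ± 1.40 TPM at T0. ATR, which answers single-stranded DNA, averaged 2.92 ± 2.07 TPM at T16 and 2.15 ± 1.51 TPM at T0. Both kinases overlapped between the groups, ATM with a range of 1.56 to 6.06 TPM at T16 that enclosed all T0 libraries.

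Of the nuclease genes of end resection, EXO1 was detected and RBBP8 was not. EXO1, an exonuclease that lengthens the resected strand, averaged 0.835 ± 0.665 TPM at T16 and 1.597 ± 1.11 TPM at T0 (SD, n = 3 each), and its groups overlapped. RBBP8, also known as CtIP, starts resection together with MRN. It was listed at 0 counts in all 6 libraries, through 1 of its 2 RefSeq transcripts, so no statement on its level is made. BLM, a helicase that acts in resection and again when joined molecules are dissolved, had 10.04, 6.35 and 2.91 TPM at T16 against 9.14, 15.0 and 12.3 TPM at T0. On the log2 CPM scale all T16 libraries of BLM were below T0, but on the TPM scale T16 replicate 1 was above T0 replicate 1. Its log2 fold change was -0.84 ± 0.47 (SE, n = 3 per group, edgeR adjusted p = 0.494).

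RPA, the trimer that coats single-stranded DNA, was the most abundant module, and its subunits had log2 fold changes of both signs. RPA3, the smallest subunit, had 125, 210 and 165 TPM at T16 against 248, 241 and 287 TPM at T0, so that every T16 library was below every T0 library. Its log2 fold change was -0.51 ± 0.33 (SE, n = 3 per group, edgeR adjusted p = 0.569). RPA1, the large subunit that holds most of the DNA contacts, had 74.5, 106 and 61.0 TPM at T16 against 51.9, 61.1 and 59.5 TPM at T0. On the log2 CPM scale the T16 libraries of RPA1 were all higher, whereas on the TPM scale T16 replicate 3 lay just below T0 replicate 2. For RPA1 the log2 fold change was 0.59 ± 0.29 (SE, n = 3 per group, edgeR adjusted p = 0.432). RPA2, the subunit phosphorylated after damage, had 136, 101 and 92.9 TPM at T16 against 116, 130 and 182 TPM at T0. T16 replicate 1 lay among the T0 libraries, and the log2 fold change of RPA2 was -0.26 ± 0.29 (SE, n = 3 per group, edgeR adjusted p = 0.772).

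Among the BRCA mediators, BRCA2 was the one with libraries at 0. BRCA2, which loads the recombinase on RPA-coated DNA, had 1.86, 0 and 0 TPM at T16 against 2.44, 2.25 and 7.50 TPM at T0. In counts these were 344, 0 and 0 at T16 and 442, 493 and 1233 at T0, all from a single RefSeq transcript of 11096 bases. T16 replicates 2 and 3 thus held none of its reads, while T16 replicate 1 came close to T0 replicates 1 and 2. A count of 0 allows up to 0.1165 CPM in T16 replicate 2 and 0.0817 CPM in T16 replicate 3, for counting error only, against 16.2 to 55.6 CPM at T0. The log2 fold change was -2.69 ± 2.08 (SE, n = 3 per group), and its edgeR adjusted p was 0.651. Without T16 replicate 1, the fitted value was -12.6 (edgeR adjusted p = 0.166), which rests on libraries at 0 and is no bound. BRCA1, the ubiquitin ligase and scaffold that acts upstream of BRCA2, averaged 12.97 ± 5.92 TPM at T16 and 17.7 ± 3.80 TPM at T0 (SD, n = 3 each). Its T16 libraries ranged over 6.30 to 17.6 TPM and its T0 libraries over 13.5 to 20.8 TPM. BRCA1 is listed by 3 of its 11 RefSeq transcripts, so it may be counted in part. BARD1, the partner of BRCA1, had 8.998, 1.89 and 3.64 TPM at T16 against 3.39, 4.58 and 6.31 TPM at T0. The BARD1 libraries of T16 included both the highest and the lowest of the 6. PALB2, which bridges BRCA1 and BRCA2, had 15.6, 6.51 and 6.97 TPM at T16 against 4.41, 11.8 and 17.7 TPM at T0, and again the groups overlapped. BRIP1, a helicase bound to BRCA1, ranged from 0.15 to 5.20 TPM at T16 and from 2.87 to 7.68 TPM at T0, with T16 replicate 3 at 15 counts.

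T16 replicate 3 held 13 counts of MRE11, 15 of BRIP1 and 0 of BRCA2, although it had the most counts of all libraries. T16 replicate 2 also had 0 counts of BRCA2, but 290 counts of MRE11 and 90 of BRIP1. These 3 genes were picked after their values were seen. By TPM, T16 replicate 3 was the lowest T16 library for 14 of the 31 tested members and the highest for 3, beside 36.4% and 18.6% of all tested genes.

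The 5 paralogs, which form complexes that steady the recombinase filament, were all on the negative side in the edgeR fit, with log2 fold changes of -1.11 to -0.13 and a median of -0.87. The sign of XRCC2 turned in the fit without T0 replicate 1 and in the fit with the replicate number as a block, and that of RAD51C in the fit without T0 replicate 3, and no paralog passed the test. RAD51D, a member of the BCDX2 complex, had 18.5, 16.2 and 12.9 TPM at T16 against 17.5, 45.6 and 37.5 TPM at T0. Its T0 replicate 1 lay near the T16 libraries, and T0 replicates 2 and 3 were clearly higher. The log2 fold change of RAD51D was -0.93 ± 0.42 (SE, n = 3 per group, edgeR adjusted p = 0.389). RAD51B had 11.9, 6.44 and 7.20 TPM at T16 against 9.53, 15.7 and 26.01 TPM at T0. RAD51C, shared by both paralog complexes, averaged 21.6 ± 9.78 TPM at T16 and 27.2 ± 10.6 TPM at T0 (SD, n = 3 each). It is listed by 1 of its 11 RefSeq transcripts, so it may be counted in part. XRCC3, the partner of RAD51C, had 5.36, 1.64 and 4.11 TPM at T16 against 3.43, 16.5 and 9.66 TPM at T0. XRCC2, of the same complex as RAD51D, averaged 6.33 ± 1.78 TPM at T16 and 7.11 ± 3.23 TPM at T0 (SD, n = 3 each). For RAD51B, RAD51D and XRCC3 the highest values were in T0 replicates 2 and 3, and T0 replicate 1 lay within the range of T16 on the TPM scale.

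Both RAD54 motor genes were lower in every T16 library than in any T0 library. Their average log2 CPM was 2.90 for RAD54L and 2.48 for RAD54B, under the limit of 3 set for naming, and they were named after their values were seen. RAD54L, a translocase that drives strand exchange, had 1.61, 1.69 and 2.70 TPM at T16 against 8.33, 8.06 and 4.67 TPM at T0. These values came from 59 to 159 counts at T16 and 164 to 376 counts at T0. Its log2 fold change was -1.67 ± 0.69 (SE, n = 3 per group), with an adjusted p of 0.342 by edgeR and 0.0911 by DESeq2. RAD54B, a related translocase, had 1.10, 1.10 and 0.97 TPM at T16 against 5.01, 2.12 and 5.30 TPM at T0. In counts, RAD54B had 53 to 79 at T16 and 137 to 241 at T0. Its log2 fold change was -1.77 ± 0.71 (SE, n = 3 per group), with an adjusted p of 0.328 by edgeR and 0.0756 by DESeq2. With single libraries left out, the log2 fold change stayed between -2.11 and -1.42 for RAD54L and between -2.16 and -1.54 for RAD54B.

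The other partners of the filament overlapped between the groups. RAD52, which anneals complementary strands, had 76.8, 29.3 and 28.7 TPM at T16 against 31.3, 78.1 and 82.6 TPM at T0. Its libraries fell at about 30 or about 80 TPM in either group, with T16 replicate 1 high and T0 replicate 1 low. RAD51AP1, which helps the filament to capture duplex DNA, averaged 15.1 ± 3.12 TPM at T16 and 23.0 ± 4.87 TPM at T0 (SD, n = 3 each). SFR1, the partner of SWI5 in an accessory complex known from yeast and mouse, was the lowest tested member, with 6, 12 and 79 counts at T16 and 4, 19 and 23 counts at T0. SWI5 had no matched transcript and is not analysed here.

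The genes that dissolve or cut joined molecules were low. TOP3A, the topoisomerase that works with BLM, had 4.04, 10.9 and 7.69 TPM at T16 against 12.4, 7.40 and 6.60 TPM at T0. Its log2 fold change was -0.13 ± 0.57 (SE, n = 3 per group, edgeR adjusted p = 0.952), and the sign turned without T0 replicate 1 and without T16 replicate 1. MUS81, a structure-specific nuclease, had 0, 76 and 193 counts at T16 and 0, 88 and 0 counts at T0. All of these reads were assigned to a noncoding transcript model of 2195 bases, and the coding model of 2288 bases was at 0 in every library. EME1, the partner of MUS81, had 0 counts in the 3 T16 libraries and 14, 25 and 2 counts at T0. With counts summed over each group and a floor of 3 counts, EME1 was at least 15.7-fold lower at T16, for counting error only. The spread between pools does not enter this bound. T0 replicate 3, at 0.0902 CPM, lay under the floor of T16 replicates 1 and 2 (0.1037 and 0.1165 CPM), though not of replicate 3 (0.0817 CPM). The summed difference rests on 41 counts, and EME1 was too low for the main test. EME1 is listed by 1 of its 5 RefSeq transcripts, so it may be counted in part. In the edgeR test without a filter on low counts its adjusted p was 0.283.

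All 3 Fanconi genes had negative log2 fold changes without passing the test, FANCD2 at -0.22, FANCM at -0.43 and FANCI at -0.59. FANCD2, which with FANCI forms the clamp at stalled forks, had 36.9, 6.76 and 16.4 TPM at T16 against 17.5, 27.7 and 30.5 TPM at T0. T16 replicate 1 was the highest and T16 replicate 2 the lowest of the 6, and without T16 replicate 2 or with the oocyte markers as a covariate the sign of FANCD2 turned. FANCI averaged 15.3 ± 6.71 TPM at T16 and 24.8 ± 4.26 TPM at T0 (SD, n = 3 each). FANCM, the translocase that calls the pathway to the fork, averaged 3.08 ± 0.809 TPM at T16 and 4.34 ± 1.15 TPM at T0 (SD, n = 3 each).

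Since subunits of a complex share libraries, 12 pairs of partners were compared as ratios of TPM within each library, which do not depend on scaling. The groups of 3 pairs did not overlap. An exact two-sided permutation test over the 20 assignments of libraries cannot go below p = 0.1, which these 3 pairs reached, and the Benjamini-Hochberg adjusted p over the 12 pairs was 0.4. The ratio RPA3/RPA1 was 1.68, 1.97 and 2.71 in T16 replicates 1, 2 and 3, against 4.79, 3.94 and 4.82 in T0 replicates 1, 2 and 3. On the log2 scale of TPM + 0.1, it was 1.05 ± 0.35 at T16 and 2.17 ± 0.16 at T0 (SD, n = 3 each), a difference of -1.11, and of -1.31 to -0.96 with single libraries left out. The ratio was thus lower in every T16 library, with the highest T16 ratio at 2.71 and the lowest T0 ratio at 3.94. RPA2/RPA1 was 1.83, 0.949 and 1.52 at T16 against 2.23, 2.12 and 3.05 at T0, a log2 difference of -0.82. NBN/MRE11 was 26.1, 8.54 and 217 at T16 against 3.66, 7.71 and 5.26 at T0, a log2 difference of 2.57. The value of 217 came from the 13 counts of MRE11 in T16 replicate 3, and without single libraries the log2 difference ranged from 1.48 to 3.51. RAD50/MRE11, with the same denominator, overlapped at 57.5, 6.36 and 318 in T16 and 6.68, 27.8 and 33.99 in T0. The other 8 pairs overlapped too, among them FANCI/FANCD2, with log2 ratios of -0.15 ± 0.58 at T16 and -0.0016 ± 0.41 at T0 (SD, n = 3 each).

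**Figure D3:**
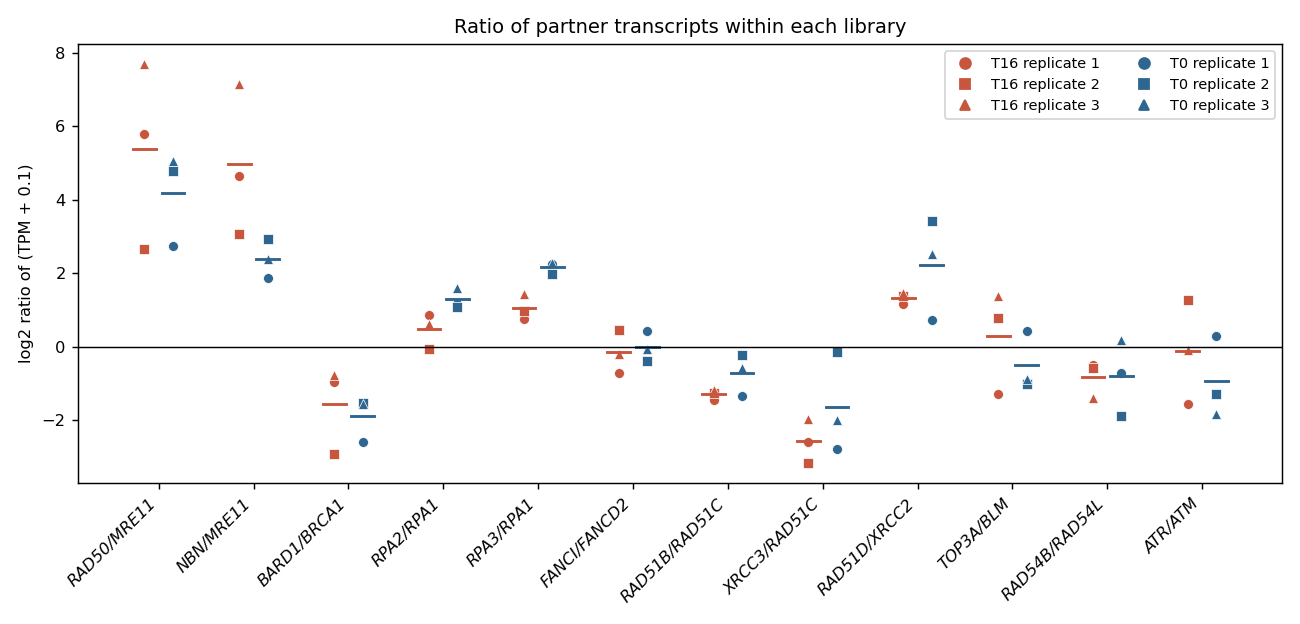
Log2 ratio of TPM + 0.1 between partner genes within each library, for 12 pairs; points are libraries and lines are group means, T16 in red to the left of T0 in blue. NBN/MRE11 is higher in all T16 libraries (difference 2.57), RPA2/RPA1 and RPA3/RPA1 are lower (differences -0.82 and -1.11), and the other pairs overlap.

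Some members also differed in which transcript model took their reads. Salmon divides reads between overlapping models, so these shares are estimates. Among genes with at least 2 models of 5% or more of their TPM and at least 50 counts in every library, 14 members could be examined, and in 3 of them the share of the main model did not overlap between the groups. The same held for 14.8% of the 4917 genes of this kind, and the 3 members were singled out after their values were seen. The 2527-base model of NBN took 97.0%, 92.2% and 89.6% of its TPM at T16 against 72.3%, 73.5% and 79.1% at T0. In levels, this model had 61.6, 56.2 and 35.8 TPM at T16 against 20.2, 26.4 and 24.0 TPM at T0. The 2934-base model of NBN was lower in every T16 library, with 1.93, 4.73 and 4.15 TPM at T16 against 7.75, 9.52 and 6.36 TPM at T0. Both models of NBN were therefore separated between the groups, and in opposite directions. How often the levels of single models separate over all genes was not computed. NBN is listed by 2 of its 3 RefSeq transcripts and FANCD2 by 4 of its 5, so their shares leave out the models without a match. The 1991-base model of XRCC3 took 53.4%, 51.9% and 68.3% at T16 against 81.1%, 91.9% and 90.5% at T0, on gene totals of 50 to 609 counts. The 4972-base model of FANCD2 took 81.3%, 78.8% and 85.3% at T16 against 93.1%, 86.5% and 90.0% at T0, a difference in means of -8.08 percentage points. The 3401-base model of RAD54B took 88.5%, 100% and 100% of its TPM in the T16 libraries. In T0 they went to that model in replicate 2, to the 3015-base model in replicate 1, and to the 3015-base and 3476-base models in replicate 3.

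**Figure D4:**
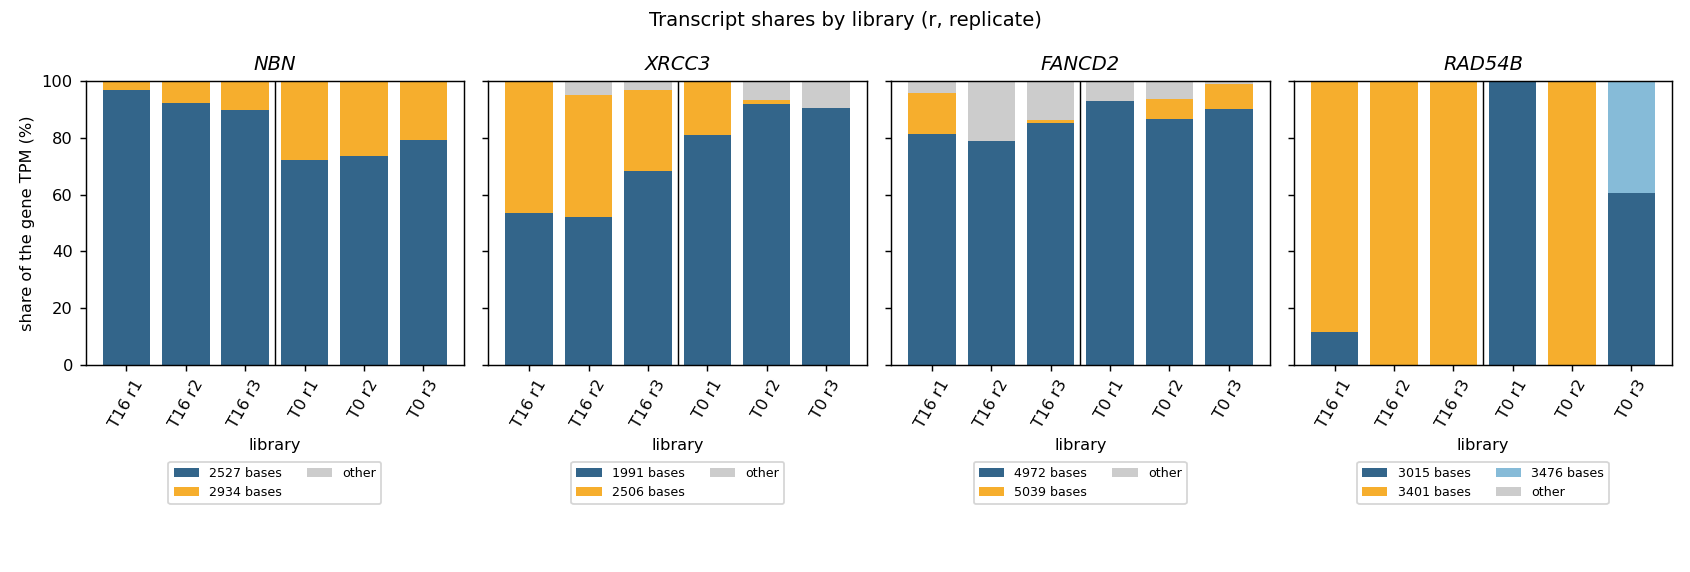
Share of each gene's TPM (%) assigned to its transcript models, named by length, in each library for NBN, XRCC3, FANCD2 and RAD54B; T16 libraries stand left of the line and T0 libraries right of it. The 2527-base model of NBN takes 89.6% to 97.0% at T16 and 72.3% to 79.1% at T0, while RAD54B switches models between T0 libraries.

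Within each group, some members ranked the libraries in the same order as the oocyte markers did. Oocyte markers were highest in replicate 1 and lowest in replicate 2 at T16, and highest in replicate 3 and lowest in replicate 1 at T0. RAD50, HUS1, FANCD2, RAD51B, PALB2 and BARD1 had this order of TPM in both groups, which is 6 of 31 members, beside 12.7% of all tested genes. TOP3A had the reverse order in both groups, as did 9.71% of all genes. This pattern was looked for after the values were seen. RAD50 was 3.08 times as high in T16 replicate 1 as in T16 replicate 2 and 3.85 times as high in T0 replicate 3 as in T0 replicate 1. In contrast, NBN kept to 40.0 to 63.6 TPM at T16 and 28.0 to 35.9 TPM at T0 over the whole range of oocyte markers. With the mean level of the oocyte markers as a covariate in edgeR, 0 members were called, and NBN had the lowest adjusted p of the members, at 0.178.

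**Figure D5:**
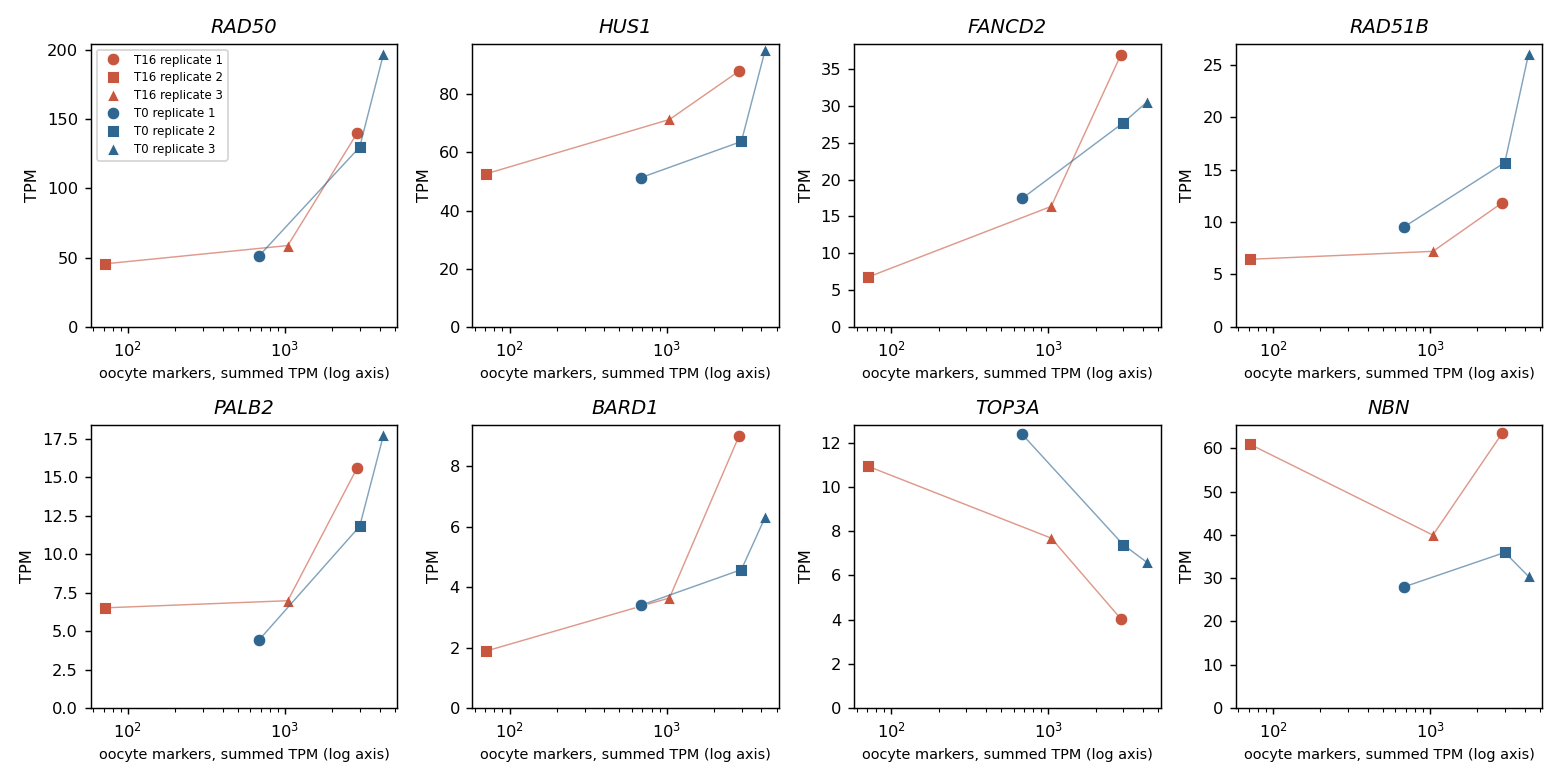
TPM of 8 members against the summed TPM of the oocyte markers (log axis) in each library; lines join the 3 libraries of a group, T16 in red and T0 in blue. The first 6 genes increase with the oocyte markers within each group (RAD50 at 45.4 to 140 TPM in T16 and 51.0 to 197 TPM in T0), TOP3A decreases, and NBN follows neither order.

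Other genes of DNA repair gave no calls either, by edgeR or DESeq2. At an unadjusted p under 0.05, edgeR gave 0 of the further homologous recombination and Fanconi genes and 0 of the meiotic recombination genes. It gave 1 of the end joining genes (5.88%, beside 13.8% of all genes). Of 45 further homologous recombination and Fanconi genes, edgeR called 0, and the median log2 fold change was -0.04. MDC1, the scaffold that holds repair factors at the break, had 12.2, 10.6 and 10.8 TPM at T16 against 16.3, 15.1 and 14.6 TPM at T0, and MCM9 was the other gene of this list without overlap, which made 4.44% beside 23.8% of all genes. Of 17 end joining genes, 0 were called, with a median of -0.24, and 3 did not overlap (17.6%, beside 23.8% of all genes). These were PAXX, POLM and SHLD1, all lower at T16 on the log2 CPM scale. POLM, the gene with an unadjusted p under 0.05, and SHLD1 had an average log2 CPM of 2.67 and 2.46. Both were named after their values were seen. PAXX, an accessory factor of the Ku complex, had 4.39, 64.4 and 21.5 TPM at T16 against 64.2, 103 and 101 TPM at T0. Its groups were apart on the log2 CPM scale, but T16 replicate 2 and T0 replicate 1 lay together in TPM, and its log2 fold change was -1.43 ± 0.83 (SE, n = 3 per group, edgeR adjusted p = 0.520). Of 26 meiotic recombination genes, 0 were called, with a median of -0.53, and 3 did not overlap (11.5%, beside 23.8% of all genes). SYCE2, of the synaptonemal complex, and TRIP13, a remodeller of meiotic chromosome axes, lay below T0 in all T16 libraries on the log2 CPM scale. In TPM the groups of both overlapped, with T16 replicate 1 above T0 replicate 1. These 2 libraries had 24.5 and 21.4 TPM of SYCE2, and 32.5 and 29.9 TPM of TRIP13. The log2 fold changes were -1.07 ± 0.67 for SYCE2 and -0.56 ± 0.46 for TRIP13 (SE, n = 3 per group, edgeR adjusted p = 0.557 and 0.673). HORMAD2, a protein of meiotic chromosome axes, lay above T0 in all T16 libraries, with 7.35, 3.46 and 3.91 TPM at T16 against 0.17, 2.29 and 1.06 TPM at T0. HORMAD2 had a log2 fold change of 2.16 ± 1.01 (SE, n = 3 per group, edgeR adjusted p = 0.408), and it was named after its values were seen, with an average log2 CPM of 1.73.

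Replication and S phase genes, 24 of them tested, had a median of -0.38, and edgeR called 0. At an unadjusted p under 0.05, edgeR gave 2 (8.33%, beside 13.8% of all genes), and DESeq2 called 1 (4.17%, beside 7.02%). UHRF1 and MCM4 were the 2 without overlap (8.33%, beside 23.8% of all genes), so each share was below that of all genes. UHRF1, which keeps DNA methylation in place behind the fork, had 26.03, 30.4 and 29.0 TPM at T16 against 64.9, 60.3 and 67.0 TPM at T0. The libraries of each group lay close together, with a log2 fold change of -1.05 ± 0.29 (SE, n = 3 per group) and an adjusted p of 0.169 by edgeR and 0.0167 by DESeq2. MCM4, a subunit of the replicative helicase, had 35.5, 54.4 and 38.2 TPM at T16 against 76.9, 97.4 and 72.8 TPM at T0. Its log2 fold change was -0.70 ± 0.30 (SE, n = 3 per group, edgeR adjusted p = 0.360).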

How the data were processed

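RNA of PMF pools was amplified with an ultra low input kit that does not mark strand, so reads of a gene and an antisense partner cannot be told apart. The authors trimmed reads (Trim Galore) and ran Salmon on RefSeq transcripts, and deposited estimated counts and TPM per transcript. Accessions of 50205 of 76123 transcripts matched the RefSeq annotation of ARS-UCD2.0, used for names only. Unmatched transcripts held 9.74% to 10.9% of counts and were left out. Deposited TPM and estimated counts were summed to genes, and counts were rounded. T16 was tested against T0 with edgeR 4.0.16 (R 4.3.3; TMM, quasi-likelihood, a minimum of 10 counts in 3 or more libraries, Benjamini-Hochberg over all tested genes, limit 0.05). Alternatives were DESeq2 1.42.0, its size factors, other filters, transcript length offsets, an oocyte covariate, a replicate block and single libraries left out. The procedure was tested on simulated data.

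Members and lists were chosen with earlier results of these data known. Values in every library are given for members called by edgeR, for those with non-overlapping groups and an average log2 CPM of at least 3, for the 6 highest and 3 lowest by mean TPM, for those with a library at 0, and for partners in a non-overlapping ratio; others were added after their values were seen. Genes of the other lists are named, up to 4 each by p, if groups did not overlap and the average log2 CPM was at least 3. POLM, SHLD1 and HORMAD2 were below that level and were named after their values were seen. Partner ratios used a pseudocount of 0.1 TPM and exact permutation tests.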

Additional observations from a re-analysis of the deposited data

How the results depend on the processing

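Under all 14 alternatives, 0 members were called, and the lowest adjusted p of a member ranged from 0.0756 (RAD54B, DESeq2) to 0.66 (RAD54B, without T0 replicate 2). The number of all genes called by edgeR, 6 in the main comparison, was 1027 with DESeq2, 11 without a filter on low counts, 16 with the oocyte covariate, 0 without both T0 replicate 1 and T16 replicate 2 (chosen after the data were seen), and 0 to 3 with single libraries left out. DESeq2 called 1 replication and S phase gene, UHRF1 (4.17% of that list, beside 7.02% of all genes), where edgeR called 0. Members with non-overlapping groups, 8 in the main comparison, numbered 6 to 16 with single libraries left out; the count of 16 was without T16 replicate 1. The cause of these shifts was not tested. RAD51D and BLM overlapped with a minimum of 50 counts, without T0 replicate 2 and without T0 replicate 3, and BLM also with transcript length offsets and without a filter on low counts, where EME1 took its place among 8. The log2 fold change of RAD50 turned to 0.021 with the oocyte covariate, and that of HUS1 ranged from -0.048 to 0.356 with single libraries left out, at -0.035 without T0 replicate 2 and -0.048 without T16 replicate 1. The deviations of same-numbered samples from their group means had correlations of -0.445, -0.121 and -0.0047 for numbers 1, 2 and 3, so the number was not used to pair them, and whether such pools share animals is not given in the sources used here. With the replicate block, 0 members and 0 of all genes were called. RBBP8, EME1 and SFR1 had the fewest counts, so their values are the least precise.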
